A study of Mus musculus with 9 samples.

Results

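The subject here was a family of 10 secreted proteins of the Wnt pathway in the mouse abdominal aorta, 4 Wnt ligands (Wnt2, Wnt4, Wnt5a, Wnt11) and 6 secreted antagonists (Sfrp1, Sfrp2, Sfrp4, Frzb, Dkk2, Dkk3). They were chosen by name, with earlier results of these data known, so the counts of called members below are descriptions. All 10 were on the array, with 11 of its 55681 probes, and 9 of them were among the 16641 genes bright enough to be tested, all but Wnt2. All mice were B cell-deficient C57BL/6 (uMT), so the controls lacked B cells too. The uMT_sham group had saline placed around the aorta, and the uMT_Ca group had 0.5 M CaCl2 placed there, an injury used to model abdominal aortic aneurysm. The uMT_Ca+IgG group had CaCl2 and, in addition, intraperitoneal mouse polyclonal IgG, which puts back antibody without B cells. CaCl2 aortas were taken at day 7. No source used here gives the sham sampling day, the age of the mice or the number of animals behind each RNA sample. Total RNA of each of 9 samples, 3 per group, was read on a 1-colour Agilent array, and p-values measure the spread among these 9 samples alone, part or all of which could be technical.

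Wnt ligands are lipid-bearing secreted proteins that bind Frizzled receptors on neighbouring cells. With the coreceptors Lrp5 and Lrp6 they stabilise beta-catenin, which then works with TCF and LEF proteins on target genes, while other ligands act through Ror2 and planar polarity proteins without beta-catenin. The secreted Frizzled-related proteins (Sfrp1, Sfrp2, Sfrp4 and Frzb, also called Sfrp3) carry a Frizzled-like domain and can bind Wnts outside the cell. Dickkopf proteins such as Dkk2 instead bind the Lrp coreceptors. In the vessel wall the pathway is known for its part in smooth muscle growth, vessel formation and calcification.

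In CaCl2-treated aortas, 4 of the 6 antagonists rose against sham, namely Frzb, Dkk2, Sfrp4 and Sfrp1. The ligand Wnt4 was called higher as well. Wnt4 and Dkk2 passed the filter on dim probes through the treated groups alone. Their place in the count therefore rests in part on that filter. No member fell, and Wnt5a, Wnt11, Sfrp2 and Dkk3 did not pass the test. The differences of the called members ran from 1.07 for Sfrp1 to 2.72 for Frzb on the log2 scale. A gene was called at an adjusted p under 0.05 (limma, Benjamini-Hochberg over all 16641 genes). Of all genes tested, 17.3% were called higher, 19.1% lower and 36.3% in either direction, so the 5 of 9, given as a description, stands beside a background in which calls were common. The median difference of the 9 members was 1.07, against -0.08 over all genes. Centring each array on its median in place of its 75th percentile moved the median of all genes to 0.39.

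A level below is the log2 signal of a probe minus its array's 75th percentile, so that 0 is the brightness of a probe at that percentile, and a difference is between group means of such levels. Levels of different probes are not set against each other. On every array 55.9% to 61.0% of spots were well above background and none was saturated. The third CaCl2+IgG sample stood apart from the other 8 arrays on the second principal component (-75.2, others 0.72 to 16.0), and the differences of the CaCl2+IgG group are given without it too. The CaCl2 arrays all lay in slide row 1 and 2 of the 3 sham arrays in row 2. The third sham array, the one in row 1, was alone on a second slide, so within row 1 the difference of CaCl2 from sham cannot be told apart from slide. Without that array all others share 1 slide, but sham then lies in row 2 alone and CaCl2 in row 1 alone. The difference of CaCl2 from sham then cannot be told apart from row. It was 2.57 for Frzb (limma adjusted p = 0.00159), 1.92 for Sfrp4 (0.00290) and 2.16 for Dkk2 (0.0142).

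Promoter sequence is shown for 3 of the genes that rose, Frzb, Dkk2 and Wnt4, and for Wnt11, which was not called, so that genes of the same family with and without a change can be compared. The promoter table used here, taken from RefSeq (GRCm38.p6), held windows for 6 of the 10 members. Each line gives the part of the 250 bases before a transcript start that lies outside the annotated gene, 5′ to 3′ on the gene's strand, and capitals mark the one motif match.
Frzb, chr2:80447397-80447646, minus strand: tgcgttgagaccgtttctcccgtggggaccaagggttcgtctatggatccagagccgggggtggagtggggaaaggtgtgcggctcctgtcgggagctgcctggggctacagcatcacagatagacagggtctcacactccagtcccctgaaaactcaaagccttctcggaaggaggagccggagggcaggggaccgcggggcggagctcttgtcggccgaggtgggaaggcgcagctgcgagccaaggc
Dkk2, chr3:132085042-132085265, plus strand: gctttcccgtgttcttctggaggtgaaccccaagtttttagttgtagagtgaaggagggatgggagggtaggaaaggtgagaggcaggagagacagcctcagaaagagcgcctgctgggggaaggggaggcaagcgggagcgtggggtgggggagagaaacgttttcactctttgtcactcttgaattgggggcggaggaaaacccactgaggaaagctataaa
Wnt4, chr4:137277385-137277634, plus strand: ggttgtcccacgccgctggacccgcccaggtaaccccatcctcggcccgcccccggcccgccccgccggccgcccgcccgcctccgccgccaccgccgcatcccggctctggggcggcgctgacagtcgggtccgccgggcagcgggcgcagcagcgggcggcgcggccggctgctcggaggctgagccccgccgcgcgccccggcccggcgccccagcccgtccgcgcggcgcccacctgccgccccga
Wnt11, chr7:98834862-98835083, plus strand: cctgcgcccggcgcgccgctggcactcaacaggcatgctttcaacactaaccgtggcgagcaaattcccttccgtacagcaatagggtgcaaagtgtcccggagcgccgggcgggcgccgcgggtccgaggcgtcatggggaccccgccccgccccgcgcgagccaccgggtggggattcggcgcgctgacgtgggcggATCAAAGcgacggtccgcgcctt
The search covered both strands of 250 bases for the TCF/LEF site written CTTTGAT or CTTTGAA, the AP-1 site TGANTCA and the Runx site TGTGGT. A TCF/LEF match can overlap an AP-1 match, since both hold TGA. Of 32851 mouse windows of that length, 7.48% held either TCF/LEF spelling, 6.75% the AP-1 site and 14.0% the Runx site. Among the 7 windows of the members the only match was CTTTGAT on the minus strand of Wnt11 (ATCAAAG as printed), at bases -51 to -45 from the transcript start. The windows of Frzb, Dkk2 and Wnt4 held none of these letters, which says nothing about the factors themselves. The 4 windows were rich in G and C, from 55.6% for Dkk2 and 64.4% for Frzb to 70.8% for Wnt11 and 85.2% for Wnt4.

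Frzb, a secreted Wnt-binding protein first found in cartilage, had the largest difference of CaCl2 from sham among the 9 members. Its probe lies at chr2:80252582-80252641 (mm9). Its level was -1.02, -0.75 and -1.32 in the sham samples, 1.64, 1.50 and 1.92 in the CaCl2 samples, and 1.83, 1.89 and 1.25 in the CaCl2+IgG samples. All 6 CaCl2-treated samples lay far above all 3 sham samples, and the treated groups overlapped. CaCl2 exceeded sham by 2.72 ± 0.23 (SE, n = 3 per group; limma adjusted p = 0.000333), which is 6.57-fold. Within slide row 1 the difference was 3.01.

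Sfrp4, a Frizzled-related protein known from bone, is read by a probe at chr13:19724488-19724547 (mm9). It was at 5.52, 5.61 and 5.16 in sham, 7.60, 7.17 and 7.69 after CaCl2, and 8.13, 7.69 and 7.48 after CaCl2 with IgG. The sham samples were again the 3 lowest, with a wide gap below the treated samples. The difference of CaCl2 from sham was 2.06 ± 0.22 (SE; limma adjusted p = 0.000733), or 4.16-fold, and 2.33 within row 1.

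Sfrp1, another Wnt-binding antagonist, rose by less. Its level, from a probe at chr8:24559438-24559497 (mm9), was 0.55, 0.79 and 0.28 in sham, 1.64, 1.58 and 1.62 after CaCl2, and 1.60, 2.54 and 1.08 with IgG. The CaCl2 samples were close together and above every sham sample, while the IgG samples were spread on both sides of them. The difference from sham was 1.07 ± 0.33 (SE; limma adjusted p = 0.0345), 2.10-fold. The call was lost on leaving out any 1 of the 3 sham or 3 CaCl2 samples (adjusted p 0.0555 to 0.106) and with slide row as a block (adjusted p 0.0669), with differences of 0.94 to 1.27.

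Sfrp2, a Frizzled-related protein made by many fibroblasts, did not pass the test. Its level was 5.72, 6.29 and 5.72 in sham, 6.43, 6.03 and 4.85 after CaCl2, and 6.71, 5.85 and 5.97 with IgG, from a probe at chr3:83577864-83577923 (mm9). The 3 groups overlapped, and the third CaCl2 sample was the lowest of all 9. The difference of CaCl2 from sham was -0.14 (95% CI -1.09 to 0.81; limma adjusted p = 0.811). It became 0.32 without that sample, 0.05 without the second sham sample and 0.33 with median scaling.

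Dkk2, a Dickkopf protein that binds Lrp5 and Lrp6 and can either block or weakly activate them, rose from a level near background. Its probe lies at chr3:131842357-131842416 (mm9). The sham samples were at -3.96, -3.51 and -4.31, with 2 of the 3 well above background. Those given CaCl2 were at -1.81, -1.37 and -1.53, and those given IgG as well at -0.60, -0.65 and -2.06. Every treated sample exceeded every sham sample, and the first and second IgG samples exceeded every CaCl2 sample while the third lay below them. CaCl2 exceeded sham by 2.36 ± 0.39 (SE; limma adjusted p = 0.00322), 5.12-fold, and by 2.74 within row 1. With normexp background correction the difference was 0.83 (adjusted p = 0.0166), so the size near background changed with that step and the call was kept. That correction was run with an offset of 50 added to every signal, which by itself shrinks log2 differences between dim signals.

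Dkk3, a divergent Dickkopf protein, moved little. Its level was 5.19, 5.36 and 5.18 in sham, 5.05, 5.13 and 4.97 after CaCl2, and 5.07, 4.93 and 4.86 with IgG, from a probe at chr7:119259556-119259615 (mm9). The CaCl2 samples lay just below the sham samples with no overlap, as for 32% of all genes. The difference was -0.19 (95% CI -0.47 to 0.09; limma adjusted p = 0.245) and turned to 0.28 with median scaling.

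Of the ligands, Wnt4, which is needed for kidney and ovary development, was the one called. Of its 2 probes the brighter lies at chr4:136855342-136855401 (mm9). Its level was -5.15, -4.26 and -4.01 in sham, none well above background, against -2.61, -3.18 and -2.68 after CaCl2 and -3.50, -1.37 and -2.91 with IgG. All treated samples were well above background and above all sham samples. Against the detection floor of the sham arrays, CaCl2 samples were at least 2.56-fold higher (limma adjusted p = 0.0399). The bound uses each sham array's lowest signal well above background or the probe's own, whichever is higher, and the measured means were -2.82 and -4.47. The adjusted p given beside this bound and later ones belongs to the measured difference of means. No interval was computed for the bounds. The call was lost on leaving out any 1 sham or CaCl2 sample (adjusted p 0.0586 to 0.119), with slide row as a block (adjusted p 0.0895) and with normexp background correction (difference 0.20, adjusted p = 0.583). The other Wnt4 probe was at -4.89, -5.53 and -6.44 in sham, -5.07, -4.90 and -5.04 after CaCl2 and -5.57, -3.56 and -4.86 with IgG. It was well above background on 0, 2 and 1 arrays of these groups, too few to be tested, and its groups overlapped.

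Wnt5a, the main ligand of the beta-catenin-independent branch, was measured on all arrays. It was at 1.06, 0.89 and 1.15 in sham, 0.51, 1.02 and 0.68 after CaCl2, and 0.38, 0.72 and 0.09 with IgG, from a probe at chr14:29336664-29336723 (mm9). The CaCl2 samples overlapped both other groups, and every IgG sample lay below every sham sample. CaCl2 differed from sham by -0.30 (95% CI -0.76 to 0.16; limma adjusted p = 0.267), and by 0.17 with median scaling.

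Wnt11, another ligand acting without beta-catenin, was at -2.24, -2.61 and -2.33 in sham, -2.29, -2.16 and -1.73 after CaCl2, and -2.05, -2.35 and -2.33 with IgG, from a probe at chr7:106001985-106002045 (mm9). The groups overlapped. Its difference of CaCl2 from sham was 0.33 (95% CI -0.09 to 0.76; limma adjusted p = 0.189).

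Wnt2, a ligand of the beta-catenin branch, passed background on 1 of 3 arrays per group and was left out of the test. Its level was -5.49, -4.95 and -3.87 in sham, -6.08, -7.11 and -4.75 after CaCl2, and -5.62, -4.62 and -5.35 with IgG, from a probe at chr6:17938994-17939053 (mm9). These values overlap between groups and are mostly at background.

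**Figure D1:**
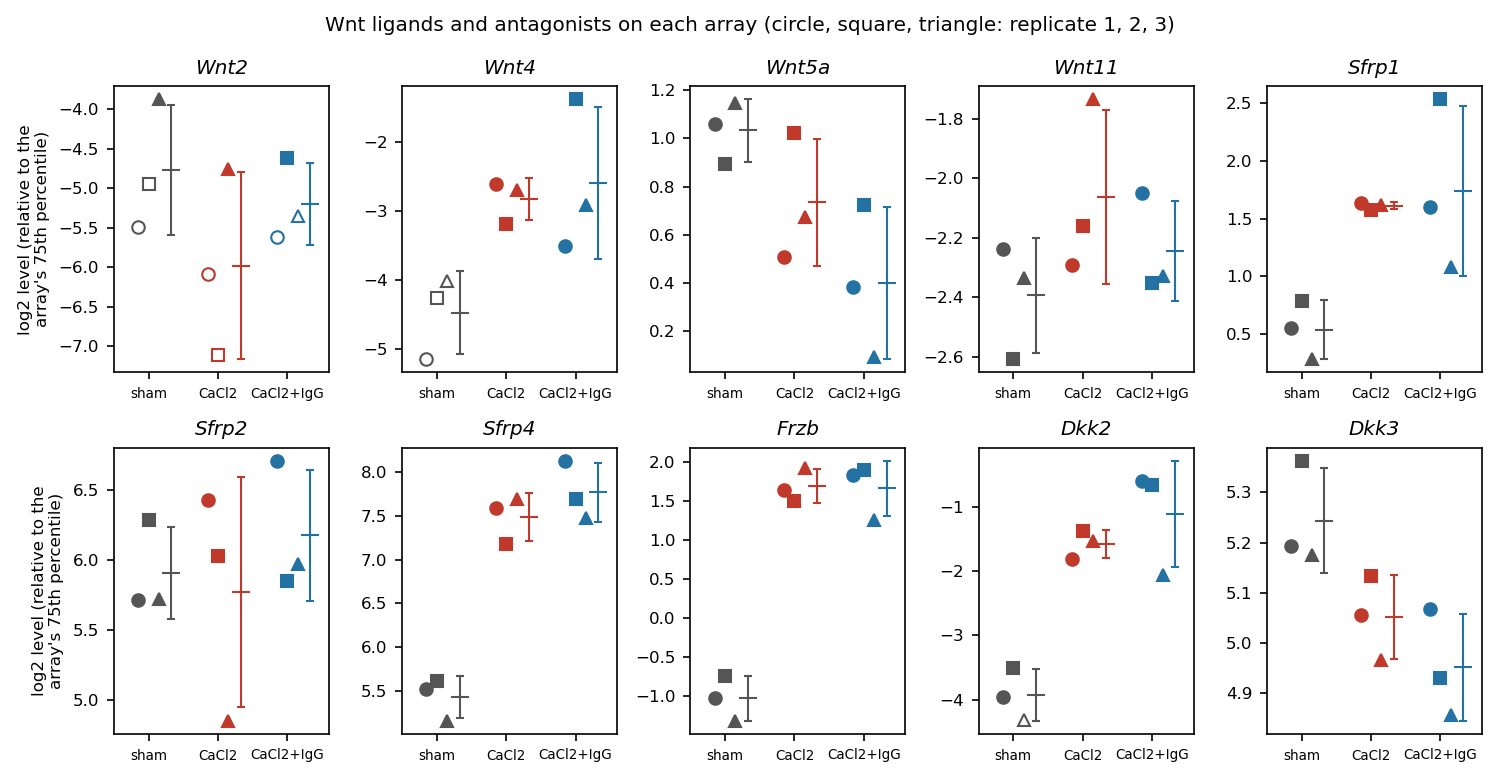
Level of each member on each of the 9 arrays (y axis, log2 signal minus the array's 75th percentile, a scale of its own per panel; brightest probe per gene), with group mean and SD beside the points and open symbols for arrays not well above background. Frzb, Sfrp4, Sfrp1, Dkk2 and Wnt4 are higher on all 6 CaCl2-treated arrays than on any sham array, while Sfrp2, Wnt11 and Wnt2 overlap between groups.

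In the order of group means, sham was lowest and the treated groups were neighbours within their spread for Frzb, Sfrp4, Sfrp1, Dkk2 and Wnt4. For Wnt5a and Dkk3 the order was reversed, with sham highest and IgG lowest. For Sfrp2 the order was CaCl2, sham, IgG and for Wnt11 sham, IgG, CaCl2, with neighbours closer than their spread. Among the 9 members, 5 had all CaCl2 samples above all sham samples and 1, Dkk3, had them all below. Over all genes the arrays of these groups did not overlap in 56.6%, with CaCl2 above in 24.5%.

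Adding IgG to CaCl2 did not separate any member from CaCl2 alone. No gene of the 16641 was called (0%) in that comparison by limma, and 251 had an unadjusted p under 0.05, none of them a member. No member had its IgG samples all above or all below its CaCl2 samples, where 2.64% of all genes had them all above and 2.39% all below (5.04% together). The median member difference was 0.13 and that of all genes -0.01. The intervals for the antagonists that CaCl2 raised were -0.55 to 0.49 for Frzb, -0.23 to 0.79 for Sfrp4, -0.62 to 0.88 for Sfrp1 and -0.43 to 1.36 for Dkk2. For Wnt4 the interval ran from -0.97 to 1.43. These 3 samples per group therefore leave room for a difference of more than 1 log2 unit in Dkk2 and Wnt4, and for less in Frzb and Sfrp4.

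The single samples behind those intervals were uneven. Without the third IgG sample, which stands apart, the difference of IgG from CaCl2 was 0.94 for Dkk2, 0.46 for Sfrp1 and 0.18 for Frzb (limma adjusted p = 1.00 for each), against 0.47, 0.13 and -0.03 with it. For Sfrp4 it was 0.43 (0.28 with it), for Sfrp2 0.51 (0.41) and for Wnt4 0.39 (0.23). For Wnt5a it was -0.18 (-0.34 with it), for Wnt11 -0.14 (-0.18) and for Dkk3 -0.05 (-0.10). Without the second IgG sample, the highest for Wnt4 and Sfrp1, the differences of these genes were -0.38 and -0.27. No member was called in this comparison under any of the 19 alternatives run.

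Against sham, the CaCl2+IgG group had 5 members called higher and 1 lower, where 14.6% of all genes were called higher, 14% lower and 28.6% in either direction. All IgG samples lay above all sham samples for 5 members and below for 2, Wnt5a and Dkk3, where 20.3% of all genes had them above and 23.8% below (44.1% together). The comparison shares its sham samples with that of CaCl2 alone. Frzb exceeded sham by 2.69 (limma adjusted p = 0.000368), Dkk2 by 2.82 (adjusted p = 0.00170) and Sfrp4 by 2.34 (adjusted p = 0.000575), or 6.44-fold, 7.07-fold and 5.05-fold. These 3 calls and their directions held under every alternative that tested the gene (18 for Dkk2, 19 for the others), in this comparison and in that of CaCl2 alone, with differences from sham here of 2.26 to 2.93 for Frzb, 1.27 to 3.30 for Dkk2 and 2.15 to 2.57 for Sfrp4. Sfrp1 exceeded sham by 1.20 (adjusted p = 0.0270) and Wnt4 by at least 3.00-fold (adjusted p = 0.0296). Without the third IgG sample these 5 stayed called, with differences from sham of 2.89 for Frzb, 3.30 for Dkk2, 2.48 for Sfrp4 and 1.53 for Sfrp1, and an adjusted p of 0.0300 for Wnt4 (limma). Wnt11 then differed from sham by 0.19 (0.15 with that sample), Sfrp2 by 0.37 (0.27) and Dkk3 by -0.25 (-0.29), all uncalled.

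Wnt5a was the member that fell in this group, by 0.64 on the log2 scale (limma adjusted p = 0.0457). That call stood at the threshold, and it was lost in 15 of 19 alternatives, among them leaving out the third IgG sample (-0.48, adjusted p = 0.0845), any 1 sham sample (adjusted p 0.0734 to 0.127) or the first IgG sample (adjusted p = 0.107). Wnt4 was lost without the first sham (adjusted p = 0.0919), the second sham (0.0633) or the second IgG sample (0.0541) and with normexp (difference 0.45, adjusted p = 0.228), and Sfrp1 without the first sham (0.0661), the third sham (0.0879) or the first IgG sample (0.0560). Both were also lost when only the sham and IgG arrays were fitted (0.0657 for Wnt4, 0.0663 for Sfrp1). Within slide row 2, which held 2 sham and 2 IgG samples, the differences were 2.46 for Frzb, 2.38 for Dkk2, 2.02 for Sfrp4, 1.14 for Sfrp1, 2.57 for Wnt4 and -0.57 for Wnt5a.

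**Figure D2:**
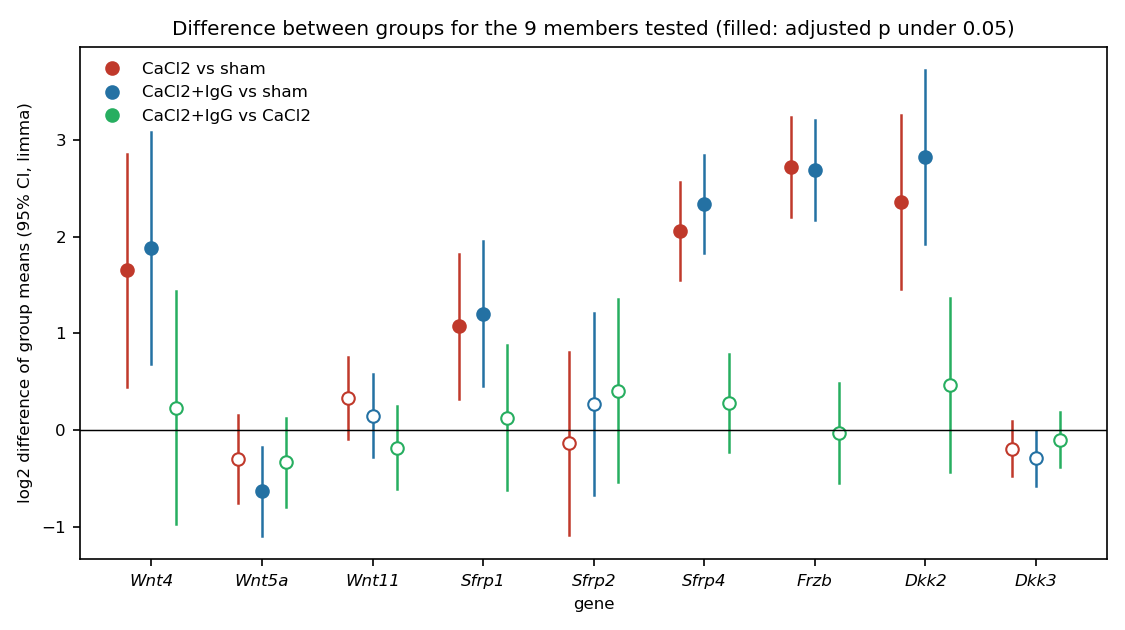
Difference of group means in log2 units (y axis) with 95% confidence intervals from the limma fit for the 9 tested members (x axis), n = 3 arrays per group, filled where the adjusted p was under 0.05. Both CaCl2-treated groups lie above sham for Wnt4, Sfrp1, Sfrp4, Frzb and Dkk2, and every interval of CaCl2+IgG against CaCl2 includes 0.

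The aorta was sampled as whole tissue, so fewer cells of a type and less RNA per cell cannot be told apart. All 8 smooth muscle markers, among them Acta2, Myh11 and Des, were called lower after CaCl2, and their summed signal (relative to the 75th percentile) was 2611 to 2995 in sham, 809 to 1302 after CaCl2 and 888 to 1211 with IgG. All 8 were well above background on every array, as expression in an aortic wall calls for. Of 11 fibroblast markers 5 rose and none fell after CaCl2, with sums of 1350 to 1642 in sham, 1768 to 2026 after CaCl2 and 1884 to 2250 with IgG.

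Markers of other cells moved with the antagonists too. Of 6 cartilage markers 5 rose, with sums of 4.66 to 7.49 in sham, 45.5 to 101 after CaCl2 and 43.9 to 76.1 with IgG. Col2a1 and Col11a1, the collagens that define cartilage, were not well above background on any sham array. Of 7 monocyte and macrophage markers 6 rose and 1, Itgam, fell, with sums of 217 to 226, 230 to 295 and 262 to 355 in the same order of groups. Such sums weigh the brightest markers most, and the median log2 difference of CaCl2 from sham over these 7 markers was 2.38. The probes of Itgam and of Csf1r differed in sign among themselves. Of 5 T cell markers measured 4 rose, with sums of 1.57 to 2.01, 5.31 to 8.56 and 4.79 to 7.93.

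The remaining lists held 1 or 2 called genes each. Of 6 endothelial markers 1 (Cldn5) rose and 1 (Vwf) fell, with sums of 74.2 to 91.8 in sham, 57.8 to 71.1 after CaCl2 and 60.2 to 81.4 with IgG. The fall of Vwf was that of its brightest probe (-0.80). Its other probe that passed the filter differed by -0.05 (adjusted p = 0.871 in a limma fit of all such probes). Of 5 nerve and Schwann cell markers measured 2 rose, with sums of 4.35 to 4.84, 8.05 to 11.8 and 8.29 to 9.29. Of 4 adipocyte markers measured 1 fell (sums of 57.2 to 162, 21.8 to 86.9 and 10.7 to 59.4), and of 2 skeletal muscle markers 1 fell (sums of 40.4 to 52.3, 5.73 to 14.5 and 7.90 to 8.51). Of 6 mesothelial markers only Wt1 was bright enough to test, and it was at least 4.60-fold higher after CaCl2, while Msln, Upk3b, Upk1b, Lrrn4 and Krt19 were not. The part of any of these cell types in the members' differences was not tested.

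Genes whose levels followed a member most closely over the 9 arrays were found by the root mean square difference between centred log2 levels. For Frzb, whose own SD over the arrays was 1.37, they were Cyth4 (0.17) and Tnfrsf1b, a TNF receptor (0.18). Sfrp4 was followed by Igf1, a growth factor (0.14), and Bend6 (0.16), and Dkk2 by Cldn5, a tight junction protein of endothelium (0.30), and Slc1a6 (0.33). These small distances, against SDs of 1.13 for Sfrp4 and 1.39 for Dkk2, describe arrays that fall into sham and treated groups.

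For Sfrp1 the nearest were Atp6v1b2 (0.22) and Fndc1 (0.23), and for Wnt4 Oas2, an interferon-induced enzyme (0.32), and Saa1, an acute-phase protein (0.34). Members that were not called after CaCl2 had other neighbours, Mdga1 and Shb (both 0.15) for Wnt5a, Pitpnm1 and Tnni3 (both 0.10) for Wnt11, and Scaf11 (0.04) and Sh2b1 (0.05) for Dkk3. Sfrp2, whose highest and lowest samples were both treated ones, was followed by Avpr1a, a vasopressin receptor (0.22), and Lama2, a laminin chain (0.23).

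The other genes of the pathway moved in both directions. Of 88 listed, 71 were tested after CaCl2, of which 14 rose, 25 fell and 32 were not called, with a median difference of -0.26, where 17.3% of all genes rose and 19.1% fell. Median scaling left 17 rises and 5 falls, so the balance of the directions depends on the scaling. Leaving out 1 sample in turn gave 9 to 15 rises and 14 to 27 falls. Of the 14 rises 6 were called under every alternative that tested them (Rspo3, Tcf7, Ror2, Myc, Axin1 and Ccnd1), and of the 25 falls 5 (Wnt9b, Lgr6, Wnt16, Nkd1 and Notum). Tcf7 and Wnt9b passed the filter on dim probes only through groups where they were high. Neither was tested with the filter that asked for signal over background in all 9 samples. That filter left 63 of the 71 genes, with 10 rises and 24 falls. Lgr5, Rnf43 and Celsr3, which rose and are described below, also passed the main filter through the treated groups alone and were left out by the stricter one. Adding IgG to CaCl2 gave no call among the 71, and CaCl2+IgG against sham gave 13 rises and 25 falls, or 15 and 27 without the third IgG sample.

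Among the other ligands, 3 of 6 tested (of 15 listed) fell. Wnt16, a ligand known from bone and joint, was at 0.35, 0.80 and 0.49 in sham and at -1.78, -0.66 and -1.33 after CaCl2, a difference of -1.81 (limma adjusted p = 0.00297). Wnt9b was at -1.50, -0.98 and -0.82 in sham, and at -2.89, -4.83 and -5.05 after CaCl2, where 1 of 3 arrays was well above background. In both genes every sham sample was above every CaCl2 sample. Wnt1 differed by -0.92, a call lost with median scaling, which left 2 falls in this group, and with the mean of its probes. So Wnt4 was the one ligand of those tested that was called higher.

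Of the other secreted antagonists 2 of 7 tested (of 9 listed) fell and none rose after CaCl2, and with median scaling 1 fell and 1 rose. Notum, an enzyme that removes the lipid from Wnts, was at 2.47, 2.72 and 3.23 in sham and at 1.52, 1.05 and 1.36 after CaCl2, a difference of -1.50 (limma adjusted p = 0.00182) without overlap. Dkk1, the best-known Dickkopf antagonist, differed by -1.91 in the direction opposite to Dkk2 (adjusted p = 0.0252). The Dkk1 call was lost in 8 of 18 alternatives, median scaling among them (adjusted p = 0.069). Dkk1 was not tested with the filter that asked for signal over background in all 9 samples. That filter left 5 of the 7 genes, with 1 fall and no rise.

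Of 9 Frizzled receptors 1 rose and 3 fell, and with median scaling 2 rose and 0 fell. Fzd4, a Frizzled of endothelium, was at 4.31, 4.04 and 4.13 in sham and at 3.05, 3.11 and 3.08 after CaCl2, a difference of -1.08 (limma adjusted p = 0.00110) that median scaling took to -0.61 (adjusted p = 0.079). Fzd7 differed by -0.96, Fzd2 by -0.95 and Fzd1 by 0.60. These 3 calls were lost in 2, 8 and 6 of 19 alternatives.

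Among 7 coreceptors and other receptors 2 rose and 2 fell, and with median scaling 2 rose and 0 fell. Ror2, the receptor of Wnt5a signalling without beta-catenin, was at -2.31, -2.31 and -1.96 in sham, at 0.21, -0.30 and 0.22 after CaCl2, and at 0.17, 0.36 and -1.11 with IgG. Sham samples were the lowest, and the third IgG sample lay between the groups. Ror2 rose by 2.24 (limma adjusted p = 0.00297), in samples where Wnt5a was not called. Of the coreceptors proper, Lrp6 was at 3.28, 3.34 and 3.87 in sham and at 3.45, 3.48 and 3.28 after CaCl2, overlapping (-0.09, adjusted p = 0.700). These values are of its brightest probe. The other Lrp6 probe that passed the filter differed by -0.62 (adjusted p = 0.0425 in a limma fit of all such probes), so the probes disagreed in the call. Lrp5 was at 1.29, 1.63 and 1.85 in sham and at 0.79, 0.66 and 0.80 after CaCl2, a difference of -0.84 (adjusted p = 0.00942) that median scaling took to -0.37 (adjusted p = 0.274). Kremen1 (0.55), which binds Dickkopf proteins, and Ptk7 (-0.90) each lost their call in 10 of 19 alternatives.

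R-spondins amplify Wnt signals by drawing the ubiquitin ligases Znrf3 and Rnf43 away from Frizzled receptors, with Lgr proteins as their receptors. Of 8 genes of this group tested 3 rose and 2 fell (3 and 1 with median scaling). With the filter that asked for signal over background in all 9 samples, 5 were tested, of which 1 rose and 2 fell. Rspo3, an R-spondin known in vessels, was at -0.23, -0.23 and -0.26 in sham, at 2.33, 2.67 and 1.89 after CaCl2, and at 3.48, 1.80 and 2.19 with IgG. All treated samples exceeded the tightly grouped sham samples, and CaCl2 exceeded sham by 2.54 (limma adjusted p = 0.00257).

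Lgr5 and Rnf43 were not well above background on any sham array and were on all CaCl2 arrays. Lgr5 was at least 3.43-fold higher after CaCl2 (limma adjusted p = 0.00970) and Rnf43 at least 2.00-fold (adjusted p = 0.00202). Both calls were lost with normexp background correction, where the differences were 0.39 and 0.15. The offset of that correction shrinks differences of probes as dim as these. Lgr6 differed by -2.39 (adjusted p = 0.00162), opposite to Lgr5, and Znrf3 by -0.96, a call lost in 7 of 19 alternatives.

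Of the genes that export Wnts, Wls, the carrier of all Wnt ligands, was at 2.80, 2.97 and 2.75 in sham and at 3.10, 3.15 and 2.99 after CaCl2, a difference of 0.24 that was not called (limma adjusted p = 0.427). The CaCl2 samples were all slightly above the sham samples. Porcn, which attaches the lipid, differed by -0.53 (adjusted p = 0.0497) and lost that call in 11 of 19 alternatives.

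Of 12 intracellular genes of the beta-catenin route 6 fell and 1 rose, but with median scaling 0 fell and 1 rose. Axin1, the scaffold of the complex that degrades beta-catenin, rose by 1.47 (limma adjusted p = 0.00824). Tcf7l1 differed by -1.15 (adjusted p = 0.00493), Dvl3 by -0.99 (adjusted p = 0.0481) and Tcf7l2 by -0.97 (adjusted p = 0.0375). The call of Tcf7l2 was lost in 8 of 19 alternatives and that of Tcf7l1 in 1, and that of Dvl3 stood at the threshold.

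Of 9 feedback and target genes of beta-catenin tested (of 12 listed) 4 rose and 2 fell (5 and 1 with median scaling, 5 and 2 with the mean of the probes of a gene). Nkd2 was not called with its brightest probe (-0.15). Its other probe that passed the filter differed by 2.45 (adjusted p = 0.00143 in a limma fit of all such probes). Lef1 was at -3.55, -2.81 and -2.65 in sham, at -1.82, -1.91 and -0.62 after CaCl2, and at -1.38, -1.53 and -0.77 with IgG. Treated samples were all above sham, and the difference of CaCl2 was 1.55 (limma adjusted p = 0.0179), a call lost with normexp, with slide row as a block and without the first sham sample. Tcf7, which like Lef1 is also high in T cells, was well above background on 1 of 3 sham arrays and rose by 2.45 (adjusted p = 0.00173). Myc rose by 1.78 (adjusted p = 0.00289) and Ccnd1 by 1.17 (adjusted p = 0.00595).

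Nkd1 and Axin2 are feedback inhibitors that beta-catenin induces. Nkd1 was at 2.81, 2.90 and 2.90 in sham, at 1.19, 1.85 and 0.78 after CaCl2, and at 1.23, 1.09 and 0.74 with IgG. Every treated sample was below every sham sample, with a difference of CaCl2 from sham of -1.60 (limma adjusted p = 0.00302). Axin2, the most used readout of beta-catenin signalling, was too dim to test, with its best probe well above background on 5 of 9 arrays. Its level was -3.78, -4.57 and -4.46 in sham, -4.66, -3.89 and -5.07 after CaCl2, and -4.05, -3.35 and -4.83 with IgG, and the groups overlapped. Tnfrsf19, another target, differed by -1.28 (adjusted p = 0.00404), and by -0.81 with median scaling (adjusted p = 0.084).

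Of 11 planar polarity and other beta-catenin-independent genes 3 rose and 4 fell, and with median scaling 3 rose and 0 fell. Celsr3 was at least 1.76-fold higher after CaCl2 (limma adjusted p = 0.00603), a call lost with normexp. Nfatc1 differed by 0.60, Prickle1 by 0.44, Prickle2 by -1.24 and Celsr2 by -1.14, and these calls were lost in 5, 10, 5 and 11 of 19 alternatives. Vangl2 differed by -0.84 with its brightest probe and by 0.26 with the mean of its 3 probes, which disagreed in sign.

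**Figure D3:**
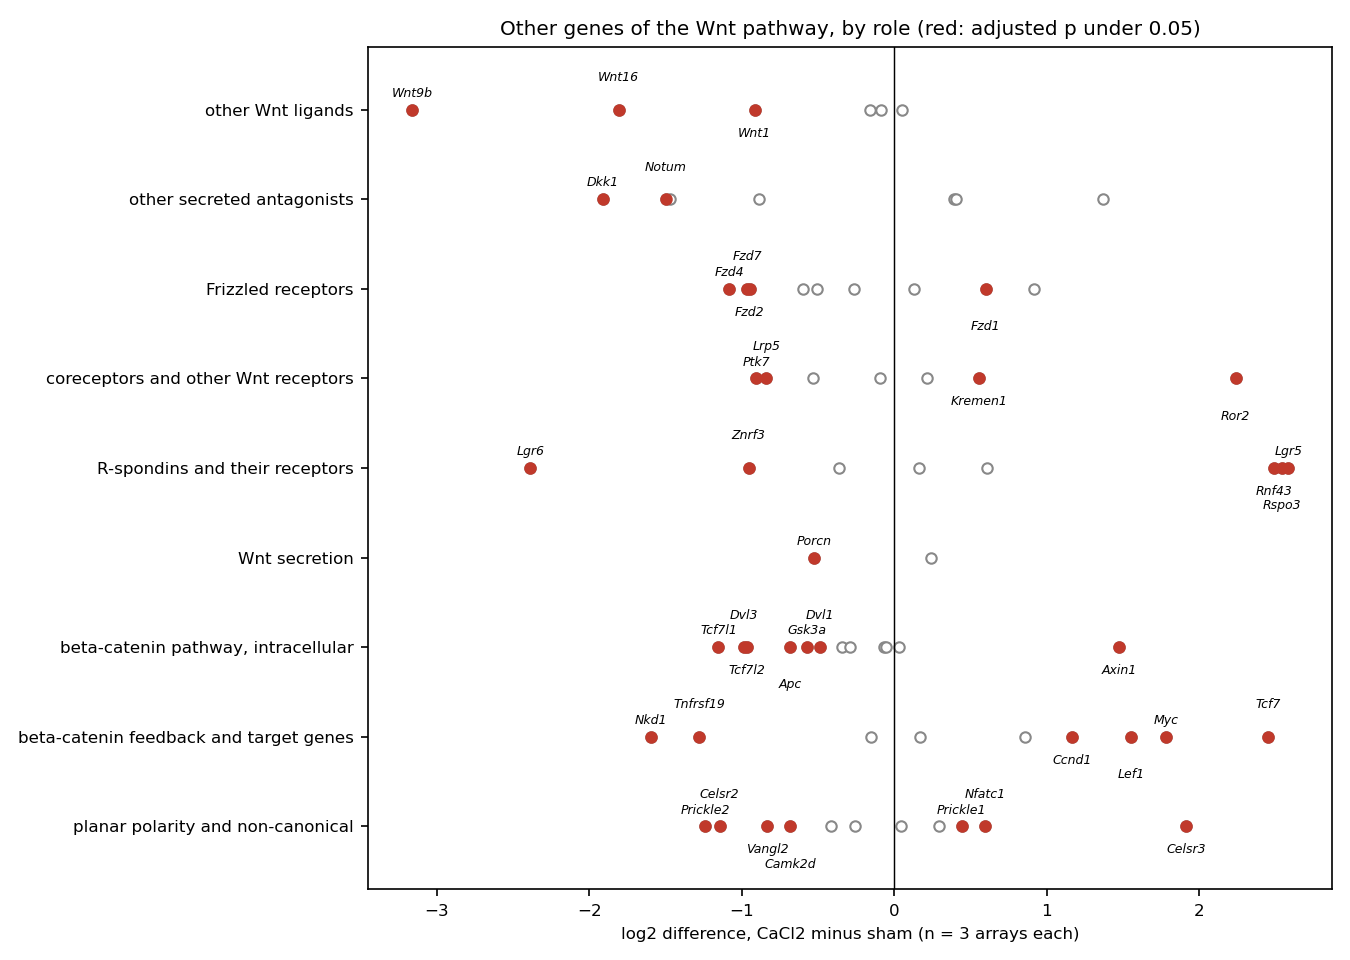
Log2 difference of CaCl2 from sham (x axis, n = 3 arrays each) for the 71 tested pathway genes outside the family, by role (y axis), red where the adjusted p was under 0.05; for Lgr5, Rnf43 and Celsr3 the plotted value is the measured difference, with the sham arrays at background. Rises such as Rspo3, Tcf7 and Ror2 and falls such as Wnt9b, Lgr6 and Wnt16 occur side by side. No rise was called among other ligands. Among other secreted antagonists no rise was called with this scaling and 1 rise with median scaling.

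**Figure D4:**
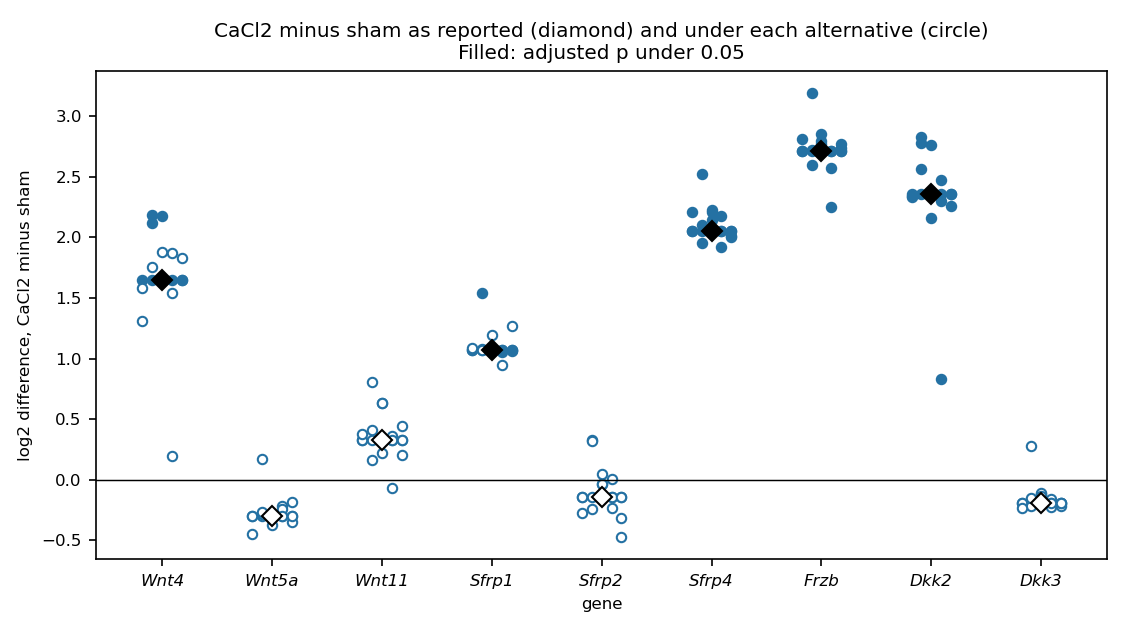
Log2 difference of CaCl2 from sham (y axis) for the 9 tested members (x axis) as reported (diamond) and under each alternative (circle), filled where the adjusted p was under 0.05. Sfrp4, Frzb and Dkk2 stay called under every alternative that tested them, 18 for Dkk2 and 19 for the others. The lowest value of Dkk2 is 0.83 under normexp background correction, while Wnt4 and Sfrp1 lose their call under several.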

How the data were processed

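The deposited scanner files hold spot intensity per array on a linear scale, made with Feature Extraction 10.7.1.1 per the file headers (9.5.1.1 per the submitters' processing notes). The authors' deposited series table, an alternative here, holds intensity values on a linear scale with a log2 median of 4.89 in all 9 columns; its normalization is stated by no source used here. RNA was labelled with Cy3, per the labels' protocols.

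Here the level was log2 of the processed intensity minus the array's 75th percentile over non-control probes. Of 55681 probes, 27235 were named by accession and 4146 by symbol through the RefSeq table (GRCm38.p6), 1817 kept the file's name and 22483 had none. Probe positions (mm9) come from the file headers and columns. Each gene was represented by its brightest probe among those that passed background throughout 1 or more groups, leaving 16641 genes. limma 3.58.1 (lmFit, eBayes; R 4.3.3) fitted the 3 groups of 3 arrays together, with Benjamini-Hochberg adjustment and a threshold of 0.05; the code was tested on simulated data. The number of arrays limits the precision. Every member is described; up to 3 called pathway genes per direction and role, with Axin2, Lef1, Nkd1, Lrp5, Lrp6, Ror2 and Wls, are named, and the 2 genes nearest each member. Members, lists and tests were chosen with earlier results of these data known. Alternatives were scaling, background correction, filter, probes, source, blocks, samples fitted and leaving out each array.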

Additional observations from a re-analysis of the deposited data

How the results depend on the processing

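Of the comparisons of each member with its value under 19 alternatives, 447 kept direction and side of the threshold, 39 lost their call and 21 turned in sign; the cause of these changes was not tested. For CaCl2 against sham, the number of called genes (6049) was 3365 with slide row as a block and 3892 to 7478 on leaving out 1 array; the called members (5) were 3 with that block, 3 of 7 with a filter that asked for signal over background in all 9 samples (Wnt4 and Dkk2 not tested), and 3 to 5 on leaving out 1 array. Median scaling gave 3676 genes higher and 1100 lower in place of 2877 and 3172. Without the filter on dim probes 2799 were higher and 5814 lower of 24054. For CaCl2+IgG against CaCl2, 0 to 2 genes were called on leaving out 1 array, 2 of them without the first IgG sample. For CaCl2+IgG against sham, 4764 genes became 3012 with median scaling and 3001 to 6739 on leaving out 1 array; the called members (6) were 3 when only these groups were fitted and 3 to 6 on leaving out 1 array. Signs of CaCl2 against sham turned with median scaling for Wnt5a (0.17), Sfrp2 (0.33) and Dkk3 (0.28), with normexp for Wnt11 (-0.065) and Sfrp2 (0.0034), and for Sfrp2 without the second sham (0.050) or the third CaCl2 sample (range over samples left out -0.47 to 0.32). For CaCl2+IgG against CaCl2 they turned with median scaling for Wnt4 (-0.0028) and Sfrp1 (-0.11), with normexp for Wnt11 (0.0064) and Frzb (0.0011), for Frzb with quantile normalization (0.0026) and the deposited series table (0.0029), and for Sfrp1 with slide row as a block (-0.071). On leaving out 1 array they turned for Wnt4 (range -0.38 to 0.69) and Sfrp1 (-0.27 to 0.46) without the second IgG sample, for Sfrp2 (-0.053 to 0.74) and Frzb (0.089) without the third CaCl2 sample, and for Frzb without the third IgG sample (range -0.15 to 0.18). For CaCl2+IgG against sham, Wnt11 turned with normexp (-0.059) and Sfrp2 without the first IgG sample (range -0.00056 to 0.46). None of these turned values was called. Samples with the same replicate number deviated together by correlations of -0.20 to 0.23, so the numbers were not taken as pairs; with the replicate block 5800, 0 and 4656 genes and 5, 0 and 5 members were called in the 3 comparisons, Wnt5a being lost against sham (adjusted p = 0.0594). Dim probes (Wnt2, Wnt4, sham Dkk2) are limited by signal over background.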
